A study of Arabidopsis thaliana with 14 samples.

Results

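Leaf senescence and the breakdown of chlorophyll were followed through 10 Arabidopsis genes, taken by their locus identifiers: SAG12 (AT5G45890), SAG13 (AT2G29350), SAG21 (AT4G02380), SAG29 (AT5G13170), SEN1 (AT4G35770), ORE1 (AT5G39610), NAP (AT1G69490), SGR1 (AT4G22920), NYC1 (AT4G13250) and PAO (AT3G44880). All 10 were listed among the 21912 genes of the soil counts and among the 33602 genes of the medium counts. The question was whether the defence activation of ibm1-1 seedlings came with an early senescence programme, in soil or in sterile medium. The mRNA libraries were from the wild type Col-0 and from ibm1-1, a point mutant in the Col-0 background of IBM1, a histone demethylase that removes H3K9 methylation from gene bodies. Soil plants spent 5 days on plates and 10 days in soil before whole seedlings were pooled, with 3 biological replicates per genotype. Medium plants were 7-day-old seedlings on sterile MS medium, with 2 biological replicates per genotype. The labels of both experiments give the treatment as regular, and ibm1-1 is the only mutant allele among these libraries.

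Leaf senescence is the ordered dismantling of a leaf, in which NAC and WRKY transcription factors switch on proteases, nutrient transporters and the enzymes that degrade chlorophyll. Chlorophyll b is first reduced to chlorophyll a, the magnesium is then removed by SGR1, and PAO opens the ring of the remaining pigment. Several senescence-associated genes (SAGs) also respond to pathogens, salicylic acid or oxidative stress in leaves that are still green, whereas SAG12 is used as a marker of developmental ageing.

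The libraries held 19957585 to 27001069 counts in soil and 18260809 to 21411230 in medium. Levels are CPM, the counts of a gene relative to the TMM-scaled size of its library, and p-values are from edgeR's quasi-likelihood test, adjusted over the 20082 genes tested in soil or the 20871 tested in medium. They measure the spread between these replicate pools, 3 per genotype in soil and 2 in medium. In these bulk seedlings, fewer cells of a type and less RNA per cell cannot be told apart. IBM1 itself was lower in ibm1-1, by a log2 fold change of -0.42 in soil (edgeR adjusted p = 1.18e-06) and -0.60 in medium (edgeR adjusted p = 0.00722). The defence gene PR5 rose by 1.90 in soil (edgeR adjusted p = 2.36e-21) and 2.19 in medium (edgeR adjusted p = 1.52e-05). The defence genes PR1 and PR2 rose more, by 4.22 and 4.64 in soil and by 8.94 and 6.27 in medium. Their medium Col-0 levels rested on 1 and 2 counts for PR1 and on 2 and 4 counts for PR2. The summed level of 5 shoot markers lay at 23008 to 24587 CPM in soil Col-0 and 19718 to 20834 CPM in soil ibm1-1, and at 12006 to 13074 and 9664 to 10246 CPM in medium. The summed level of 7 root markers was 64.2 to 72.1 CPM against 48.3 to 52.6 CPM in soil and 74.3 to 90.4 CPM against 37.8 to 53.2 CPM in medium. The 3 seed storage and oil body markers summed to 0.0387 to 0.169 CPM in soil Col-0 but 31.1 to 38.2 CPM in soil ibm1-1, and to 0.499 to 1.36 CPM over the medium libraries. Shoot and root markers were thus detected in every library of these whole plants. The flower markers, of which 3 were listed in soil, summed to 3.35 to 4.35 CPM in soil Col-0 and 0.279 to 1.03 CPM in soil ibm1-1. Among them AP1 had a log2 fold change of -5.49 (edgeR adjusted p = 1.56e-11). In medium they summed to 0.657 to 1.19 CPM in Col-0 and 1.21 to 1.27 CPM in ibm1-1. The differences of the shoot, root, seed and flower markers stand beside the results below, and their part in the results was not tested.

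The 250 bases before the annotated gene start are shown for SAG13 and NAP, which were called higher in ibm1-1 in both experiments, and for SAG21, called in medium alone. They were read from the RefSeq annotation of TAIR10.1, 5′ to 3′ on the strand of each gene, and capitals mark the W-box (TTGACC or TTGACT, on either strand), the core bound by WRKY factors, and the G-box (CACGTG), bound by bZIP and bHLH factors.
SAG13 (chr2:12600664-12600913, plus strand): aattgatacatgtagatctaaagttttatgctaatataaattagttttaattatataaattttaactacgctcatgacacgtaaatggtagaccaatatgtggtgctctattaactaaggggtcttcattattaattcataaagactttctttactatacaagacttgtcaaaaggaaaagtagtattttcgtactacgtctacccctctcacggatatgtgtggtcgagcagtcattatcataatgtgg
NAP (chr1:26121830-26122079, plus strand): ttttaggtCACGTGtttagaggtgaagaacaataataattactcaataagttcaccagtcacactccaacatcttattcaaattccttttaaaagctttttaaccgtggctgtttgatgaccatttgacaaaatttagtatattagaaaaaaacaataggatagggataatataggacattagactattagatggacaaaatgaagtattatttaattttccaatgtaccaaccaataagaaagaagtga
SAG21 (chr4:1047106-1047355, minus strand): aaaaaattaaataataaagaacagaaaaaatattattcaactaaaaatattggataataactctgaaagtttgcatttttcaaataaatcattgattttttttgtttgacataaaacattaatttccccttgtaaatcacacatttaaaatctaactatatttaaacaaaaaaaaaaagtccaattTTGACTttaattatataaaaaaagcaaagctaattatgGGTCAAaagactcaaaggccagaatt
The SAG21 window held 2 W-boxes, beginning 64 and 26 bases before the gene start, and the NAP window held 1 G-box, 242 bases before it. The SAG13 window held neither motif. Among the 10 genes a W-box occurred in 2 (SAG21 and SAG29) and a G-box in 1 (NAP), whereas over 27443 promoters of the same length 28.4% held a W-box and 6.49% a G-box. The windows of SEN1, SGR1 and PAO overlap a neighbouring protein-coding gene, and the windows of all promoters were not screened for such overlap. A match describes the letters of the window only.

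In soil, ibm1-1 carried higher transcript levels of SAG13 and NAP, and no member of the set fell by more than 2-fold. Genes were called differentially expressed (DEGs) at an adjusted p below 0.05 together with a change of more than 2-fold. Of the 8 members that could be tested, 2 were higher DEGs, against 5.87% of all genes tested, and 0 were lower DEGs, against 2.39%. By adjusted p alone 4 members rose (SAG13, SAG21, NAP and SGR1) against 25.4% of all genes, and 3 fell (SEN1, NYC1 and PAO) against 25.9%. The median log2 fold change of the 8 members was 0.23, beside 0.00 over all genes. For 7 of the 8, all ibm1-1 replicates lay on the same side of all Col-0 replicates, a pattern shown by 57.1% of all genes. SAG12 and SAG29 did not pass the filter on low counts.

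In medium, SAG13, SAG21 and NAP were higher DEGs, 3 of the 9 members tested against 5.53% of all genes. None of the 9 was a lower DEG, against 1.53% of all genes. NYC1 also rose by adjusted p alone, which made 4 members higher, against 11.5% of all genes, and 0 lower, against 7.77%. All 9 log2 fold changes were above 0, with a median of 0.38 beside -0.01 over all genes, and both ibm1-1 replicates lay above both Col-0 replicates for 8 of the 9, where 61.8% of all genes were separated in either direction. At an unadjusted p below 0.05 the members counted 7 higher and 0 lower (edgeR), and DESeq2 and limma-trend each gave 4 higher and 0 lower by adjusted p. SAG13 and NAP were the members called as DEGs in both experiments.

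**Figure D1:**
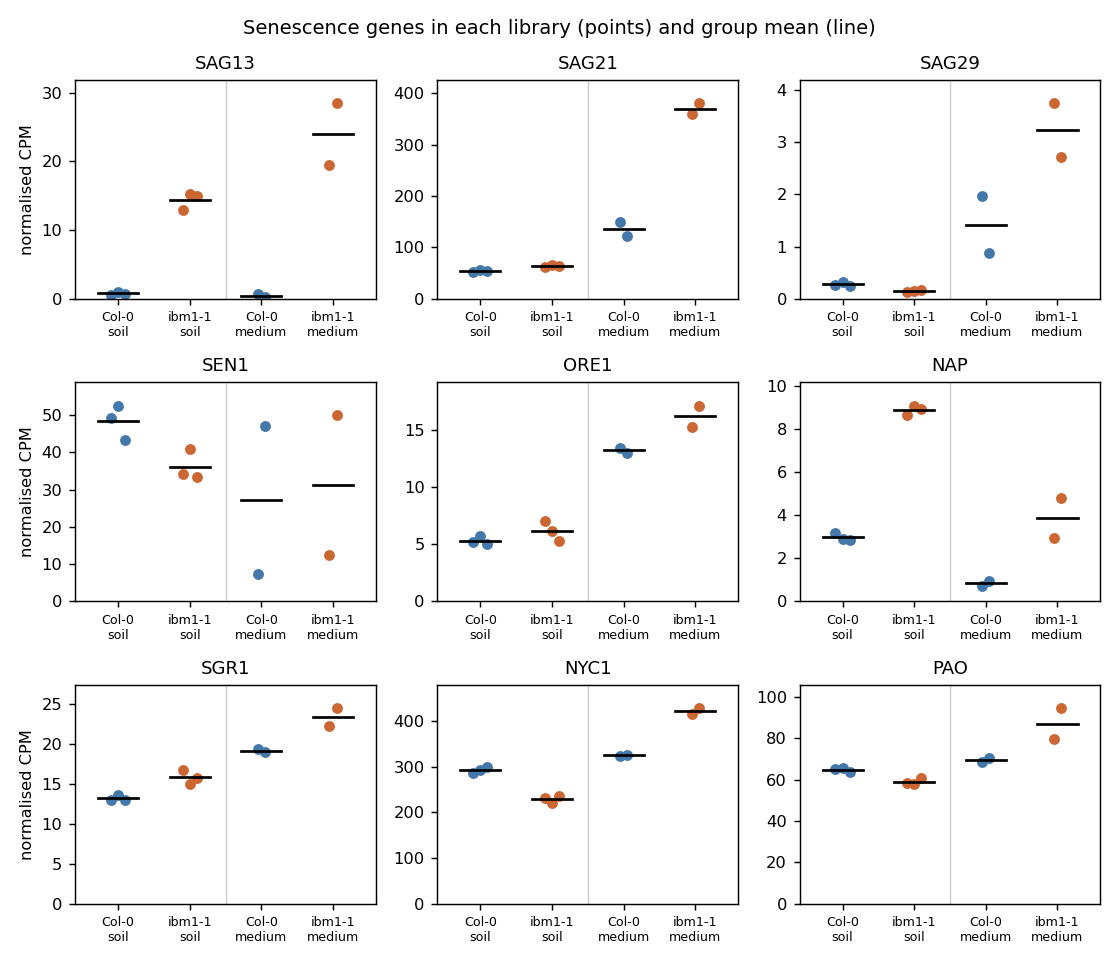
Level of the 9 detected genes in every library, in CPM after TMM scaling, with 1 panel per gene, 1 point per library (blue for Col-0, orange for ibm1-1) and a line at the mean of each genotype in each experiment. SAG13 and NAP stand higher in every ibm1-1 library than in any Col-0 library of the same experiment, and SEN1 in medium is spread widely within both genotypes. SAG12, at 0 throughout, is not drawn.

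SAG12 encodes a cysteine protease of senescing leaves, and lies at chr5:18613239-18614963 on the plus strand. It had 0 counts in all 6 soil libraries and in all 4 medium libraries. A count of 0 allows up to 3 counts, that is 0.116 to 0.157 CPM in a soil library and 0.137 to 0.166 CPM in a medium library, and 0.0209 CPM over all soil libraries together. SAG12 transcripts were thus not detectable at this depth in either genotype, and no comparison of the genotypes was possible.

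SAG13, a short-chain dehydrogenase gene at chr2:12600914-12602556 on the plus strand that responds to pathogens and oxidative stress, had the largest difference among the members in both experiments. In soil it stood at 0.620, 0.943 and 0.762 CPM in the Col-0 replicates, from 16, 18 and 18 counts. The ibm1-1 replicates held 12.9, 15.3 and 15.0 CPM, from 316, 387 and 376 counts. Every ibm1-1 library was far above every Col-0 library, and the 18.9-fold rise had a log2 fold change of 4.24 (SE 0.154, n = 3 per genotype, edgeR adjusted p = 3.72e-20). In medium the level was 0.657 and 0.274 CPM in Col-0 and 19.5 and 28.5 CPM in ibm1-1. The groups were again apart, although the Col-0 level rested on 13 and 6 counts, and SAG13 rose 51.8-fold (log2 fold change 5.70, SE 0.324, n = 2 per genotype, edgeR adjusted p = 7.93e-06). Leaving out 1 medium library at a time, the log2 fold change ran from 5.17 to 6.42, the latter without Col-0 replicate 1. SAG13 lies in a row of related reductase genes, and how reads shared with such copies were counted is not given in the sources used here.

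SAG21, a mitochondrial protein of the late embryogenesis abundant family that responds to oxidative stress, lies at chr4:1046042-1047105 on the minus strand. In soil it was at 51.2, 55.4 and 54.2 CPM in Col-0 and at 62.2, 65.8 and 63.4 CPM in ibm1-1. The ranges did not overlap, but the rise was small, at 1.19-fold (log2 fold change 0.25, SE 0.0475, edgeR adjusted p = 4.78e-05). In medium the Col-0 replicates held 149 and 122 CPM and the ibm1-1 replicates 359.9 and 381 CPM. Both ibm1-1 libraries were thus well above both Col-0 libraries, and SAG21 rose 2.73-fold (log2 fold change 1.45, SE 0.131, edgeR adjusted p = 1.01e-04). A miRNA gene is annotated within the SAG21 locus on the same strand.

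SAG29 encodes the sucrose transporter SWEET15, at chr5:4181042-4183354 on the minus strand. It was close to the limit of counting in soil, with 7, 6 and 6 counts in Col-0 and 3, 4 and 4 counts in ibm1-1. The ratio of ibm1-1 to Col-0 was 0.530, and its 95% interval from counting error alone, 0.228 to 1.17, spanned equality. In medium SAG29 was at 1.97 and 0.867 CPM in Col-0 and at 3.74 and 2.71 CPM in ibm1-1. Both ibm1-1 libraries were above both Col-0 libraries, with a log2 fold change of 1.20 that missed the threshold (SE 0.377, edgeR adjusted p = 0.0521). With the replicate number as a block the adjusted p was 0.00583 (edgeR), and over all settings tried it ran from 0.00262 to 0.228.

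SEN1, a dark-inducible gene at chr4:16944878-16946266 on the plus strand that responds to sugar starvation, was lower in soil ibm1-1. Its soil levels were 49.2, 52.6 and 43.3 CPM in Col-0 and 34.1, 41.0 and 33.4 CPM in ibm1-1. The ranges did not overlap, and SEN1 fell to 0.750 of the Col-0 level (log2 fold change -0.41, SE 0.0674, edgeR adjusted p = 5.78e-06). In medium the level was 7.23 and 47.0 CPM in Col-0 replicates 1 and 2, and 12.4 and 49.9 CPM in ibm1-1 replicates 1 and 2. The libraries thus paired by replicate number and not by genotype, and the log2 fold change of 0.19 was far inside its error (SE 0.714, edgeR adjusted p = 0.884). For the replicate ratios and ranks given here, 0.5 CPM was added to every level. So taken, replicate 2 was 6.15-fold above replicate 1 in Col-0 and 3.91-fold above it in ibm1-1. By the smaller of both ratios SEN1 ranked 3 of 20871 genes. ASN1, a dark-inducible asparagine synthetase gene that was singled out after its values were seen, ranked 10, at 6.45-fold and 2.34-fold. Of the 5 other dark-inducible genes, DIN4 ranked 478 (1.36-fold and 1.21-fold) and BGLU30 690 (1.18-fold and 1.25-fold), and DIN10 ranked 5816, DIN9 14738 and DIN11 20753. Without ibm1-1 replicate 2 the SEN1 difference in medium was -1.14 (edgeR adjusted p = 1.10e-06), so 1 library decides its sign.

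**Figure D2:**
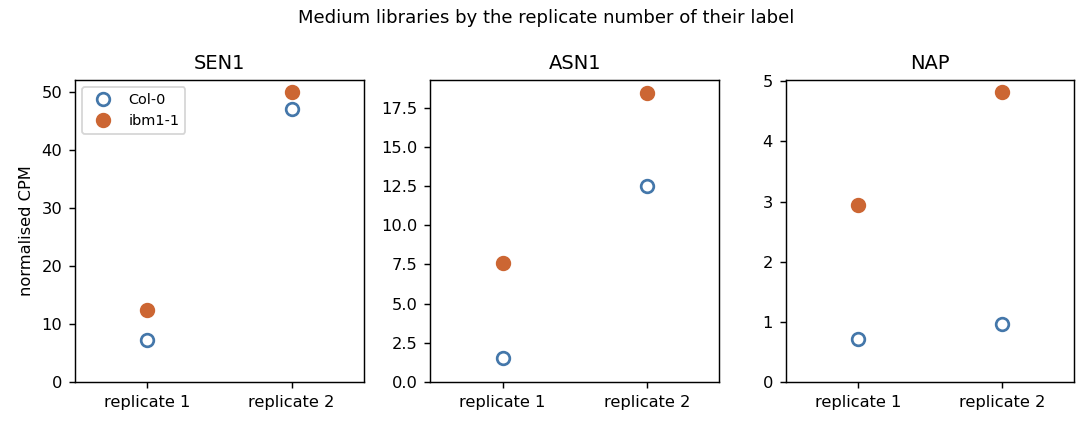
Level of SEN1, ASN1 and NAP in the 4 medium libraries, in CPM after TMM scaling, by the replicate number of the label, with open points for Col-0 and filled points for ibm1-1. SEN1 separates by replicate number (7.23 and 12.4 against 47.0 and 49.9 CPM), whereas for NAP both ibm1-1 libraries lie above both Col-0 libraries. NAP was also higher in replicate 2 of each genotype, 1.21-fold in Col-0 and 1.54-fold in ibm1-1 with 0.5 CPM added. By the smaller of both ratios it ranked 495 of 20871 genes.

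ORE1 and NAP are NAC transcription factors that promote leaf senescence, ORE1 downstream of ethylene signalling and NAP as an activator of abscisic acid synthesis and of chlorophyll breakdown genes. ORE1, at chr5:15858398-15859911 on the minus strand, was at 5.23, 5.71 and 5.04 CPM in soil Col-0 and at 7.09, 6.17 and 5.26 CPM in soil ibm1-1. The groups overlapped, and the log2 fold change of 0.22 did not pass the test (SE 0.125, edgeR adjusted p = 0.153). It passed without ibm1-1 replicate 3, the lowest of the mutant libraries (0.32, edgeR adjusted p = 0.0442), and when libraries were scaled by size alone (0.33, edgeR adjusted p = 0.0228). In medium ORE1 was at 13.4 and 13.1 CPM in Col-0 and at 15.3 and 17.2 CPM in ibm1-1. The ibm1-1 libraries were higher without overlap, by 0.29 on the log2 scale, which did not pass either (edgeR adjusted p = 0.158).

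NAP, at chr1:26122080-26123514 on the plus strand, was at 3.18, 2.88 and 2.84 CPM in soil Col-0 and at 8.64, 9.09 and 8.92 CPM in soil ibm1-1. The mutant libraries were close to each other and well above the wild type, and NAP rose 2.98-fold (log2 fold change 1.58, SE 0.121, edgeR adjusted p = 2.78e-12). In medium it was at 0.708 and 0.959 CPM in Col-0 and at 2.95 and 4.82 CPM in ibm1-1. Here too the groups were apart, with a 4.60-fold rise (log2 fold change 2.20, SE 0.351, edgeR adjusted p = 0.00243), from 14 and 21 counts in Col-0.

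SGR1, NYC1 and PAO cover successive steps of chlorophyll breakdown, and none of them was a DEG in either experiment. NYC1, at chr4:7684156-7687006 on the minus strand, is a chlorophyll b reductase and was the most abundant member per length in 3 of the 4 groups. It fell in soil and rose in medium. The soil levels were 286, 293 and 300.4 CPM in Col-0 and 232, 220.2 and 237 CPM in ibm1-1, with no overlap, and NYC1 fell to 0.784 of Col-0 (log2 fold change -0.35, SE 0.0410, edgeR adjusted p = 1.96e-08). The medium levels were 324 and 326 CPM in Col-0 and 415 and 429 CPM in ibm1-1, also without overlap, and NYC1 rose (log2 fold change 0.38, SE 0.112, edgeR adjusted p = 0.0436). The medium call was lost without Col-0 replicate 2 (edgeR adjusted p = 0.0511), ibm1-1 replicate 1 (0.206) or ibm1-1 replicate 2 (0.277). NOL, the partner reductase of NYC1 and named after its values were seen, fell in both experiments, with a log2 fold change of -0.42 in soil (edgeR adjusted p = 3.87e-07) and -0.43 in medium (edgeR adjusted p = 0.0459).

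SGR1, the magnesium dechelatase at chr4:12016420-12018643 on the minus strand, was at 12.9, 13.6 and 12.9 CPM in soil Col-0 and at 16.7, 15.0 and 15.7 CPM in soil ibm1-1. Each mutant library exceeded each wild-type library, and SGR1 rose 1.20-fold (log2 fold change 0.27, SE 0.0753, edgeR adjusted p = 0.00371). In medium the levels were 19.3 and 18.9 CPM against 22.2 and 24.4 CPM, a difference of the same size (0.29) that did not pass with 2 replicates (SE 0.120, edgeR adjusted p = 0.127).

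PAO, the pheophorbide a oxygenase at chr3:16383595-16386344 on the plus strand, was at 65.4, 65.5 and 63.7 CPM in soil Col-0 and at 58.4, 58.0 and 61.1 CPM in soil ibm1-1. The groups did not overlap, and PAO fell to 0.912 of the Col-0 level (log2 fold change -0.13, SE 0.0456, edgeR adjusted p = 0.0160). This call was lost when libraries were scaled by size alone (-0.01, edgeR adjusted p = 0.818) and without ibm1-1 replicate 1 (0.0821) or 2 (0.0664). In medium PAO was at 68.4 and 70.3 CPM in Col-0 and at 79.8 and 94.7 CPM in ibm1-1, higher without overlap but not past the threshold (0.33, SE 0.119, edgeR adjusted p = 0.0840). PAO overlaps a neighbouring gene on the same strand in the annotation.

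**Figure D3:**
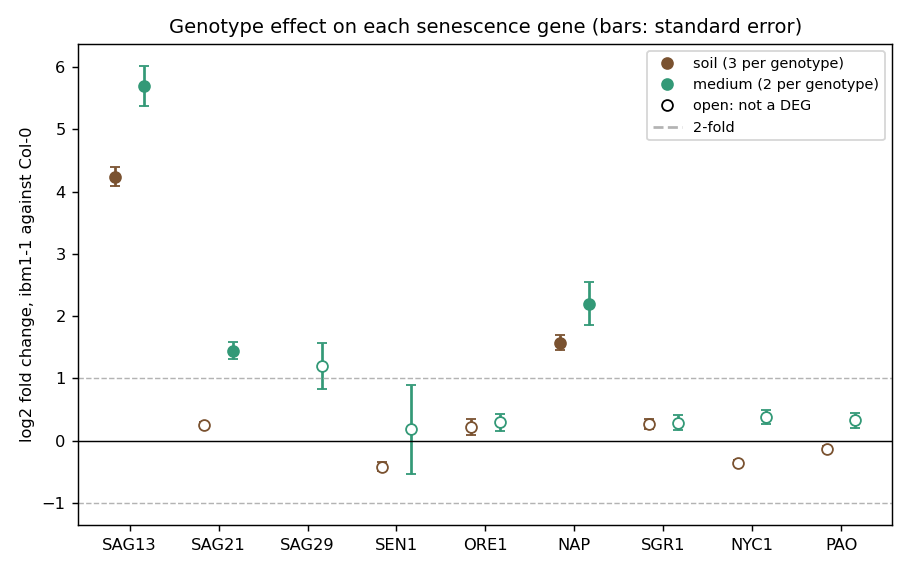
Log2 fold change of ibm1-1 against Col-0 for each tested member in soil and in medium, with bars of 1 SE, dashed lines at 2-fold and open points for genes that were not DEGs. SAG13 and NAP lie far above 0 in both experiments, SAG21 in medium, and NYC1 and PAO lie below 0 in soil and above it in medium.

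Per kilobase of exon, the order of the levels in soil Col-0 was NYC1 (142 CPM per kb), SAG21 (55.4), SEN1 (37.3), PAO (32.2), SGR1 (7.46), ORE1 (4.06), NAP (2.37), SAG13 (0.567) and SAG29 (0.207), with no overlap between neighbours, and SAG12 at 0. In soil ibm1-1, SAG13 moved up to 10.5 CPM per kb, level with SGR1 at 8.96, from which its replicates were not separated, and PAO (29.3) and SEN1 (27.9) also overlapped. In medium Col-0 NYC1 (157) and SAG21 (140.2) led, and SAG13 was the lowest detected member at 0.340 CPM per kb. In medium ibm1-1 SAG21 led with 382 CPM per kb, above NYC1 at 204, and SAG13 (17.6) overlapped SEN1 (24.0). SAG13 thus took a higher place among the members in ibm1-1 than in Col-0 in both experiments, and SAG21 in medium.

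The effect of ibm1-1 differed between soil and medium for 4 of the 9 members that could be tested, all with a lower value in soil, beside 9.64% of all 20192 genes lower in soil and 7.64% higher. These were SAG21 (soil minus medium log2 fold change -1.20, SE 0.109, limma adjusted p = 8.86e-08), NYC1 (-0.71, SE 0.0937, limma adjusted p = 1.26e-05), PAO (-0.45, SE 0.111, limma adjusted p = 0.00698) and SAG29 (-2.18, SE 0.577, limma adjusted p = 0.0110). The SAG29 value rested on few soil counts, and was -1.58 without medium Col-0 replicate 2 (limma adjusted p = 0.0391). For SAG13 the difference was -1.53 (SE 0.754, limma adjusted p = 0.184) and for NAP -0.57 (SE 0.481, limma adjusted p = 0.482), so that the larger folds in medium were not shown to differ from those in soil. The SEN1 difference was -0.79 (SE 0.599, limma adjusted p = 0.419), and with the replicate number as a block it passed (-0.68, limma adjusted p = 0.00347). The SAG13 difference passed when edgeR was used (-1.45, adjusted p = 0.0404). SGR1 (0.01, limma adjusted p = 0.977) and ORE1 (-0.04, limma adjusted p = 0.928) were close to 0 difference. Growth condition, age and the processing of the reads differ together between the experiments and cannot be told apart.

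Among 108 further genes of senescence, chlorophyll and photosynthesis, soil ibm1-1 had 9 higher and 3 lower DEGs, against 5.87% and 2.39% of all genes. By adjusted p alone 33 were higher and 40 lower, against 25.4% and 25.9%. In medium 107 were tested, with 16 higher and 1 lower DEGs, against 5.53% and 1.53% of all genes. By adjusted p alone 32 were higher and 8 lower, against 11.5% and 7.77%. In soil most of the higher DEGs were transcription factors. Of 22 factors known to promote senescence 5 were higher and 1 lower DEGs in soil, against 5.87% and 2.39% of all genes, and 10 rose and 5 fell by adjusted p alone, against 25.4% and 25.9%. In medium 5 were higher and 0 lower DEGs, against 5.53% and 1.53%, and 8 rose and 2 fell by adjusted p alone (edgeR), against 11.5% and 7.77%. WRKY53, an early regulator that also acts in salicylic acid defence, was at 10.2, 12.3 and 11.1 CPM in soil Col-0 and at 42.9, 42.3 and 49.2 CPM in soil ibm1-1. The groups did not overlap, and WRKY53 rose by 2.01 on the log2 scale in soil (edgeR adjusted p = 3.92e-20) and by 2.00 in medium (edgeR adjusted p = 5.32e-04). A gene on the opposite strand overlaps WRKY53, as also JUB1, PPDK, DIN10 and ASN1, and the strand setting of the counting is not given in the sources used here. WRKY75 rose by 1.64 and 1.60, and WRKY45 by 1.03 and 1.63, in soil and medium. NAC016 rose in soil (1.68, edgeR adjusted p = 7.78e-08), NAC055 fell in soil (-1.07, edgeR adjusted p = 8.95e-09), and NAC019 rose in medium (2.24, edgeR adjusted p = 0.00988), a call lost without Col-0 replicate 1 (edgeR adjusted p = 0.0541). Without ibm1-1 replicate 2, NAC019 stood at 1.41 on the log2 scale. In medium NAC019 and WRKY45 were also higher in replicate 2 of both genotypes. By the smaller ratio of replicate 2 to replicate 1 they ranked 71 and 76 of 20871 genes, whereas WRKY75 ranked 15718 and WRKY53 18583. The part of the replicate in these calls was not tested.

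Of 6 factors known to delay senescence, 1 was a higher DEG in soil, against 5.87% of all genes, and 3 in medium, against 5.53%. By adjusted p alone 3 rose and 1 fell in medium, against 11.5% and 7.77% of all genes. The gene that fell was GLK2, an activator of chloroplast genes that is named after its values were seen (-0.65, edgeR adjusted p = 0.0144), and it rose in soil (0.72, edgeR adjusted p = 1.56e-13). In soil 5 rose and 0 fell by adjusted p alone, against 25.4% and 25.9%, also with DESeq2 and limma-trend and at an unadjusted p below 0.05 (edgeR). JUB1, a NAC factor that lowers hydrogen peroxide, rose by 2.04 in soil (edgeR adjusted p = 1.73e-06), and in medium had 2 and 1 counts in Col-0 and 27 and 10 in ibm1-1. WRKY70, a negative regulator of senescence and an activator of salicylic acid responses, rose in medium from 3.99 and 4.47 CPM to 18.5 and 17.6 CPM (log2 fold change 2.09, edgeR adjusted p = 2.79e-05), and WRKY54 also rose (edgeR adjusted p = 0.00524).

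Of 12 further genes of chlorophyll breakdown, 0 were lower DEGs, against 2.39% of all genes in soil and 1.53% in medium. In each experiment 1 was a higher DEG, against 5.87% of all genes in soil and 5.53% in medium. In soil this was AT2G25625 (log2 fold change 1.67, edgeR adjusted p = 2.30e-06), listed as CV, which is not an enzyme of the pigment pathway. In medium it was CYP89A9, which modifies the breakdown products (1.21, edgeR adjusted p = 0.00234). By adjusted p alone 6 rose and 2 fell in soil, against 25.4% and 25.9% of all genes, and 4 rose and 2 fell in medium, against 11.5% and 7.77%. Of 20 genes of protein breakdown and nutrient recycling, 1 was a higher and 1 a lower DEG in soil, against 5.87% and 2.39% of all genes, and 4 rose and 8 fell by adjusted p alone, against 25.4% and 25.9%. In medium 5 were higher and 1 a lower DEG, against 5.53% and 1.53%, and 9 rose and 1 fell by adjusted p alone, against 11.5% and 7.77%. SAG14, a blue copper protein gene, rose in medium (1.96, edgeR adjusted p = 2.16e-04) and fell in soil (-0.63, edgeR adjusted p = 7.03e-13). The medium calls also included PPDK (1.42, edgeR adjusted p = 2.26e-04), and GLN1;4, a cytosolic glutamine synthetase that fell (-1.43, edgeR adjusted p = 0.00300). Of 5 dark-inducible genes, 1 was a higher and 1 a lower DEG in soil, against 5.87% and 2.39% of all genes. These were the beta-glucosidase gene BGLU30 (2.01) and DIN10, which fell (-1.39, edgeR adjusted p = 2.47e-22). By adjusted p alone 2 rose and 2 fell in soil, against 25.4% and 25.9%, and 1 rose and 0 fell in medium, against 11.5% and 7.77%. In medium DIN11 was the 1 higher DEG (3.17, edgeR adjusted p = 0.00173), against 5.53% of all genes, and 0 were lower DEGs, against 1.53%. DIN11 was at 7.63 and 3.56 CPM in Col-0 and at 25.6 and 74.2 CPM in ibm1-1. Its log2 difference became 2.20 without ibm1-1 replicate 2 and 3.80 without Col-0 replicate 1.

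Of 14 genes of chlorophyll synthesis 2 rose, 9 fell and 3 did not pass in soil by adjusted p alone, against 25.4% of all genes higher and 25.9% lower. Their median log2 fold change was -0.14. Of 13 tested in medium 2 rose and 0 fell, against 11.5% and 7.77% of all genes, with 2 higher and 2 lower at an unadjusted p below 0.05 (edgeR) and 0 lower with DESeq2 or limma-trend. Of 13 genes of light harvesting proteins and the Rubisco small subunit 1 rose, 8 fell and 4 did not pass in soil, with a median of -0.20, and 3 rose and 2 fell in medium, beside the same shares of all genes. No gene of these lists was a lower DEG in either experiment, where lower DEGs made up 2.39% of all genes in soil and 1.53% in medium. In soil 0 were higher DEGs, against 5.87% of all genes, and in medium 1, against 5.53%. This 1 higher DEG, LHCB1.1, shares near-identical copies and is uncertain. When libraries were scaled by size alone, the median of all soil genes moved from 0.00 to 0.12, and the counts then became 4 higher and 5 lower for chlorophyll synthesis and 2 higher and 6 lower for light harvesting. The summed shoot markers given above were also lower in ibm1-1, but LHCB3 and LHCB5 belong to both sets, so the sum is no separate measure. The other shoot markers were at -0.26 (CA1), 0.02 (RCA) and 0.63 (GLK1) on the log2 scale in soil. In medium these were at -0.61, -0.32 and -0.13, while LHCB3 (0.71) and LHCB5 (0.26) were above 0. The part of shoot content in these counts was not tested. None of 16 autophagy genes changed by more than 2-fold in either experiment, where DEGs made up 5.87% higher and 2.39% lower of all genes in soil and 5.53% and 1.53% in medium. By adjusted p alone 3 were higher and 6 lower in soil, against 25.4% and 25.9% of all genes, and 2 were higher and 0 lower in medium, against 11.5% and 7.77%. In medium the counts were 3 and 0 at an unadjusted p below 0.05 (edgeR), and 2 and 0 by adjusted p with DESeq2 or limma-trend. Their median in soil, -0.07, became 0.05 with scaling by library size alone, as did that of the recycling genes, from -0.07 to 0.05.

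**Figure D4:**
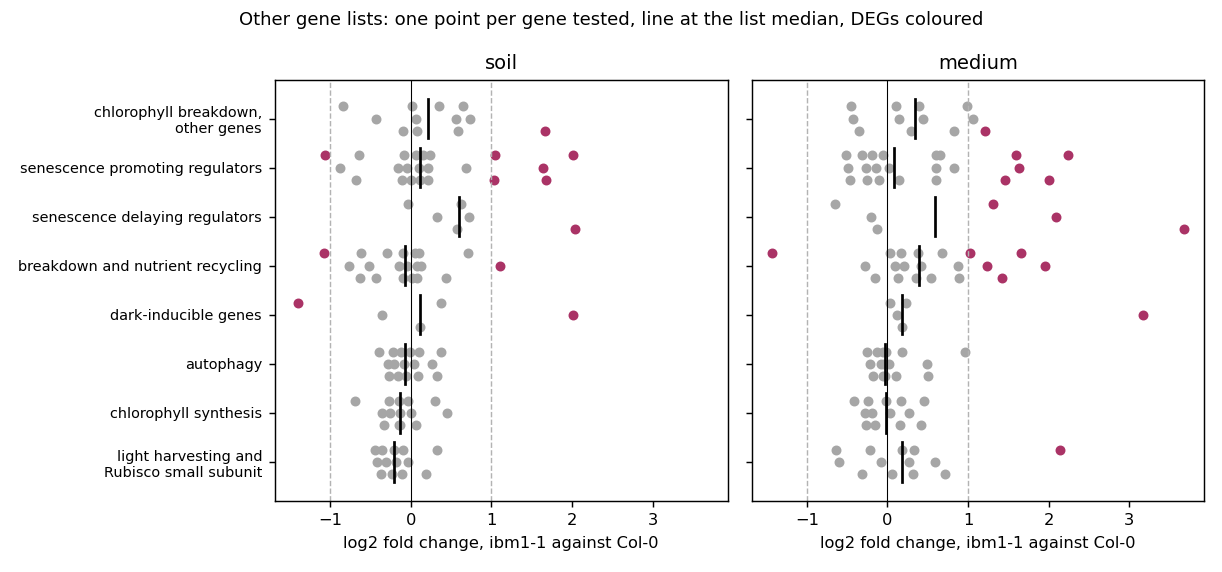
Log2 fold change of ibm1-1 against Col-0 for the genes of each list in soil and in medium, 1 point per gene tested, with DEGs coloured, a bar at the median of each list and dashed lines at 2-fold. The medians of the chlorophyll synthesis and light harvesting genes lie at -0.14 and -0.20 in soil. The DEGs lie mostly to the right, among regulators and recycling genes.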

How the data were processed

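The authors deposited unnormalized counts of reads per gene for 6 soil and 4 medium mRNA libraries, made with a directional kit. The study's methods give TopHat and HTSeq-count after SolexaQA and cutadapt for the soil reads. For the medium reads they give HISAT and htseq-count after Trimmomatic. Both used TAIR10. The submitters' processing notes name Trimmomatic 0.36, HISAT2 2.1.0 and HTSeq 0.9.1. The strand setting of the counting is not given in the sources used here. The soil table holds 40 empty columns. The bisulfite samples were not analysed here.

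Each experiment was fitted by itself with edgeR 4.0.16 under R 4.3.3. Genes were filtered with filterByExpr, libraries scaled with TMM, and genotypes compared with the quasi-likelihood test and Benjamini-Hochberg adjustment. The difference between experiments was tested as an interaction in limma 3.58.1 (voom with quality weights) over the genes listed in both tables that passed filterByExpr on all 10 libraries together, which is how SAG29 entered it. Standard errors in edgeR were back-calculated from its F statistic and the log2 fold change, so they are no separate estimate of spread. Alternatives were DESeq2 1.42.0, its size factors, limma-trend, library size alone, a mean CPM minimum of 5, no filter, no fold threshold, a replicate block and leaving out each library. The statistics were tested on simulated data.

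The members and lists were chosen with earlier results of these data known. All 10 members are described, and from each other list at most the 4 called genes with the largest absolute log2 fold change per experiment may be named. Positions and sequences are those of RefSeq for TAIR10.1, matched by locus. Intervals and floors cover counting error only.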

Additional observations from a re-analysis of the deposited data

Results flagged for a closer look

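The effect of ibm1-1 differed between soil and medium for 4 of the 9 genes tested in the limma interaction test, all lower in soil. Of all 20192 genes, 9.64% were lower in soil and 7.64% higher. The soil minus medium log2 fold change was -1.20 for SAG21, which rose in both experiments, and -2.18 for SAG29, which had few soil counts. It was -0.71 for NYC1, which fell in soil and rose in medium, and -0.45 for PAO, which fell in soil and did not pass the test in medium. Growth, age and read processing differ together between the experiments.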

How the results depend on the processing

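SAG13 and NAP in both experiments and SAG21 in medium stayed past an adjusted p of 0.05 in the same direction under every alternative that tested them. NAP in medium was not tested with a mean CPM of at least 5. Without a fold threshold the calls were 5109 higher and 5198 lower genes in soil, with 4 and 3 members and 33 and 40 genes of the other lists, and 2391 higher and 1622 lower genes in medium, with 32 and 8 of the other lists. With a mean CPM of at least 5, fewer genes were tested, and the calls were 376 and 274 genes in soil with 2 higher list genes, and 518 and 139 genes in medium with 9 and 0 list genes. Scaling by library size alone left 1 lower list gene in soil, raised the genes with a higher effect in soil than in medium to 2856, and gave an ORE1 interaction of 0.10; the PAO interaction then missed the threshold (limma adjusted p = 0.0559). The SGR1 interaction, close to 0, was -0.00641 with voom without weights and -0.00790 with edgeR. Leaving out each library gave 1 to 3 lower list genes in soil, 0 to 1 lower members in medium, a SEN1 difference in medium of -1.14 to 2.101 with -0.60 without Col-0 replicate 1, and interactions of -0.0637 to 0.0703 for SGR1, -0.18 to 0.0331 for ORE1 and -2.19 to 0.52 for SEN1. The SAG13 interaction passed with edgeR (-1.45, adjusted p = 0.0404) and without medium Col-0 replicate 1 (-2.13, limma adjusted p = 0.0480). Calls in medium that at least 1 alternative removed by adjusted p were those of NYC1 among the members and of NAC019, PIF4, JUB1 and CEP1 among the other lists. In at least 1 alternative the change was below 2-fold for CYP89A9 (log2 fold change 0.90) and SAG101 (0.99) in medium. In soil this held for WRKY6 (0.98), WRKY45 (0.94), NAC055 (-0.95), CEP1 (0.90) and SAG113 (-0.82). The replicate numbers do not come with a stated pairing. Deviations of same-numbered libraries correlated over genes at 0.147 in medium and -0.0200 to 0.0179 in soil. With the replicate block SEN1 differed between the experiments (-0.68, limma adjusted p = 0.00347), SAG29 passed in medium (edgeR adjusted p = 0.00583), and no other member's call changed. The cause of these changes was not tested. Depth limits SAG12, SAG29 in soil and SAG13 in medium Col-0, and 2 replicates limit the medium calls.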
